A study of Mus musculus with 6 samples.

Results

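The genes described here encode the machinery that brings proteins into mitochondria, together with the channels of the mitochondrial outer membrane. They were taken by symbol, as all protein-coding mouse genes named Timm or Tomm followed by a digit, plus Vdac1, Vdac2, Vdac3, Samm50, Mtx1, Mtx2, Mtx3, Pmpca and Pmpcb. This rule was chosen with earlier results of these data known. The rule found 34 genes among the 53700 gene rows of the count tables, of which 21929 are annotated as protein-coding. It left out Tomm6os, an antisense RNA. The libraries are polyA RNA-seq of mouse germinal vesicle (GV) oocytes, each from 10 oocytes of C57BL/6N background, and compare 3 wild-type libraries (Zar +/+ in the labels) with 3 libraries of Zar1 knockout (Zar -/-). GV oocytes are fully grown oocytes arrested in meiotic prophase. The product of Zar1 binds RNA in oocytes. By its title the study deals with mRNA storage in oocytes at a compartment near mitochondria. Neither animal age nor the deleted part of Zar1 is given in the sources used here.

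Almost all mitochondrial proteins are made in the cytosol and enter through the TOM complex of the outer membrane, whose receptors hand them to the channel protein TOM40. Proteins with a cleavable presequence pass on through the TIM23 complex and are pulled into the matrix by a motor built on mitochondrial HSP70, where the processing peptidase MPP removes the presequence. The small TIM chaperones carry hydrophobic proteins across the intermembrane space to the TIM22 complex, which inserts carriers into the inner membrane, or to the SAM complex, which inserts barrel-shaped proteins into the outer membrane. VDAC proteins are such barrels and form the main pores of the outer membrane for metabolites and ions. Oocytes hold a very large number of mitochondria, which the embryo inherits.

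Levels are given as CPM, the count of a gene relative to its library's total after TMM scaling. Library totals over genes ran from 32126555 to 39148833. Zar1 itself stood at 379, 386 and 395 CPM in wild type against 1.98, 2.58 and 6.18 in its knockout. Knockout replicates 2 and 3 stood apart from each other on the second principal component of all genes, with scores of -34.9 and 49.6, and their effect is given where it changes a result. Transcripts of the mitochondrial genome took between 0.587% and 0.849% of counts in wild type and between 0.997% and 1.12% in knockout. With these transcripts left out of the fit, the counts of genes called below were still 6 higher and 5 lower. Of 18 markers of granulosa, cumulus and theca cells, 5 stayed under 1 CPM in every library. Their summed level was 113 to 122 CPM in wild type and 137 to 139.9 CPM in knockout, and Cyp19a1 and Nr5a2, at 35.6 CPM or more in every library, made up most of it. Has2, Cyp11a1, Kitl, Hsd17b1 and Gja1 reached 6.22, 6.13, 4.37, 4.34 and 3.28 CPM in their highest library, Amh and Foxl2, which define granulosa cells, 0.107 and 0.192 CPM, and Tnfaip6 was at 0 in all. By the edgeR test 2 of the 13 tested follicle markers were higher and 2 lower, beside 14.9% and 18.5% of all tested genes. The summed level of 7 blood and endothelial markers was 24.1 to 26.1 CPM in wild type and 30.2 to 34.1 CPM in knockout without overlap, most of it Pecam1 (23.7 CPM or more in every library), while Hbb-bs and Hba-a1 were at 0 in all. The part of these cells in the results was not tested. In pools of whole oocytes, a change in mRNA per oocyte and a change in its share of all mRNA cannot be told apart. Levels are those of polyA RNA, and tail length was not measured. A change in tail length therefore cannot be told apart from them either.

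Of the 34 genes, 30 passed the filter on low counts and were tested. In the knockout 6 of them were higher, 5 were lower and 19 did not pass (edgeR quasi-likelihood test, Benjamini-Hochberg adjusted p under 0.05 over all 16473 genes tested). The genes that rose were Tomm40, Mtx2, Timm10b, Timm44, Timm50 and Pmpcb, and those that fell were Vdac2, Mtx1, Mtx3, Timm10 and Timm21. The 20% higher and 16.7% lower compare with 14.9% and 18.5% of all tested genes, so the shares were near the background. The groups did not overlap in 13 of the 30 (43.3%), against 47.8% of all tested genes. The median log2 fold change of the 30 genes was 0.02, and that of all tested genes was 0.01. Summed over all 34 genes the level was 2131 ± 75.7 CPM in wild type and 2166 ± 25.9 CPM in knockout (mean ± SD, n = 3 each), with overlapping libraries. Without wild-type replicate 2 or 3, the number of lower genes was 2 or 3.

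**Figure D1:**
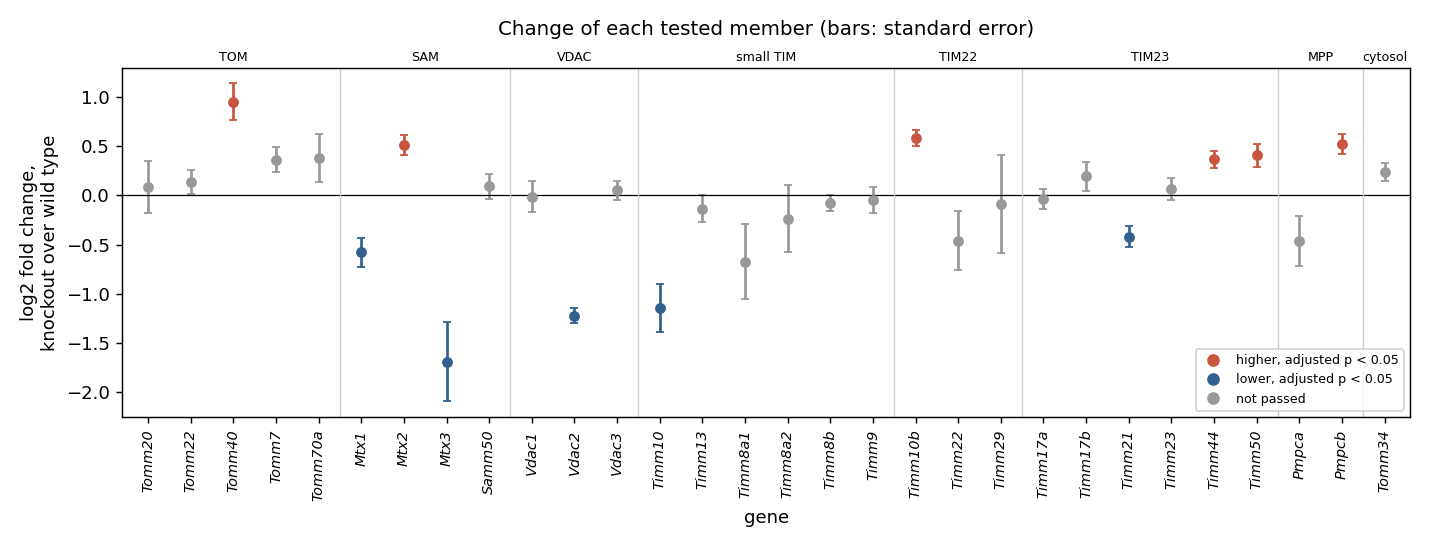
Log2 fold change (knockout over wild type) of the 30 tested genes, grouped by complex; bars are standard errors and colours mark genes past an edgeR adjusted p of 0.05. Within the SAM and TIM23 groups, genes that rose stand beside genes that fell, and Vdac2 is the only outer membrane channel below 0 past the threshold.

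Wild-type levels spanned a wide range within each complex. Per kilobase of annotated exon, Timm8b was highest at 362 CPM per kb, followed by Tomm22 at 280.5 and Timm9 at 92.3. These placed Timm8b and Tomm22 above 99.4% and 99.2% of tested genes. Timm44 (34.0), Vdac2 (33.4), Timm17a (28.1) and Tomm34 (26.3 CPM per kb) came next. At the other end Mtx3 had 0.213, Tomm20 0.678, Tomm70a 0.833, Timm22 0.848 and Pmpca 0.854 CPM per kb. With the longest transcript in place of all exons, the same genes took ranks 1 to 3, so the choice of length did not alter the top of the order. The median coefficient of variation of the 30 genes was 7.39% among wild-type libraries and 10.9% among knockout libraries, against 11.9% and 16.8% over all tested genes.

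**Figure D2:**
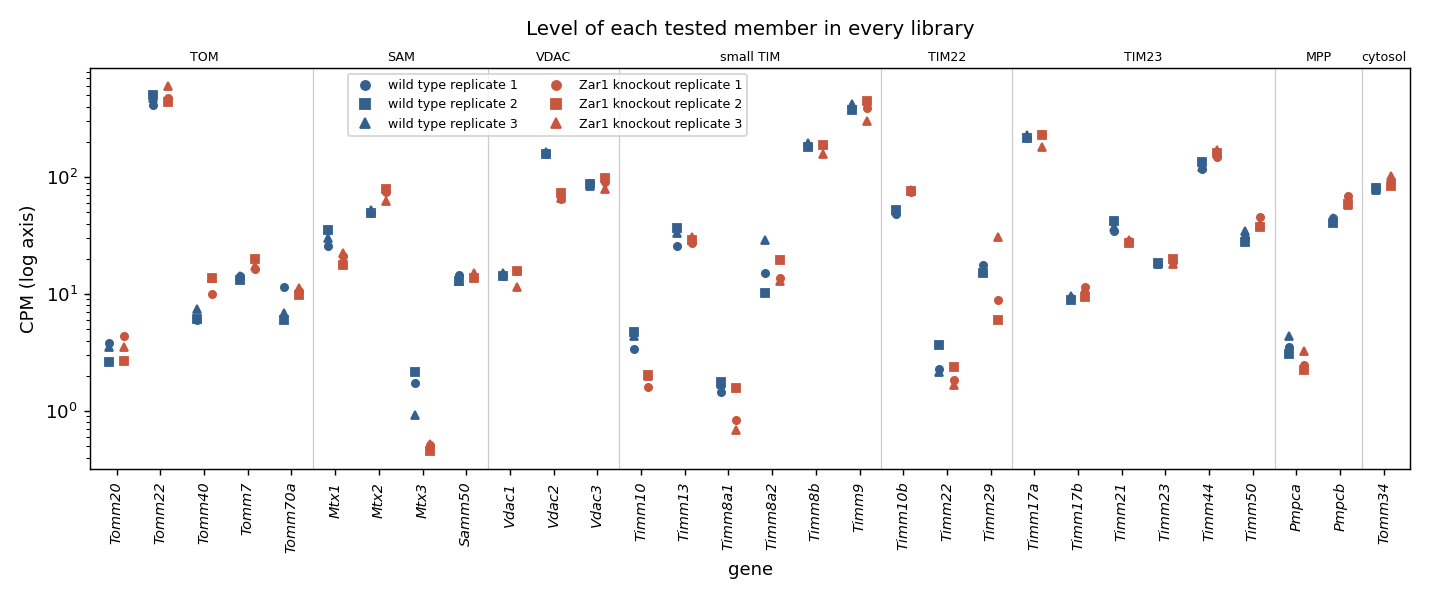
Level in CPM (log axis) of the 30 tested genes in each of the 6 libraries, grouped by complex, with 1 symbol shape per replicate number. Tomm22 and Timm9 lie highest in all libraries, and knockout replicate 3 of Timm29 (30.6 CPM) lies apart from the other knockout libraries.

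Of the VDAC genes Vdac2 fell and the other two did not pass, and the share of Vdac2 in the VDAC mRNA was lower in every knockout library. Vdac2 (ENSMUSG00000021771.15), the isoform known to hold the pro-death protein BAK at the outer membrane, had 157, 157 and 163 CPM in wild-type replicates 1, 2 and 3 and 65.6, 72.7 and 66.3 CPM in the knockout replicates. Every knockout library lay far below every wild-type library. The fall was 2.33-fold (log2 fold change -1.22 ± 0.08, where ± gives the standard error here and below; edgeR adjusted p = 2.31e-05), the smallest adjusted p of the 30 genes. Vdac1, the most abundant isoform in most tissues, had 14.2, 14.2 and 15.1 CPM in wild type against 15.8, 15.8 and 11.55 in knockout (log2 fold change -0.01 ± 0.16, edgeR adjusted p = 0.96, 95% interval -0.32 to 0.29). Vdac3 had 88.7, 88.0 and 84.1 CPM in wild type against 91.7, 99.2 and 79.3 in knockout (log2 fold change 0.05 ± 0.10, edgeR adjusted p = 0.723, 95% interval -0.14 to 0.24). For both, the libraries of the genotypes overlapped, and knockout replicate 3 was the lowest of all 6. With offsets for GC content and length Vdac3 passed as higher, at 0.30 (edgeR adjusted p = 0.0398), and with these offsets and the replicate block it did not (0.0522).

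The makeup of the VDAC mRNA pool shifted accordingly. Counts per exon length gave Vdac2 60.3%, 60.3% and 61.6% of the VDAC total in wild type and 37.5%, 38.5% and 42.2% in knockout. Vdac3 went from 29.2 ± 1.05% to 45.6 ± 1.03% and Vdac1 from 10.1 ± 0.304% to 15 ± 1.53% (mean ± SD, n = 3 each). For each VDAC gene the shares of the genotypes did not overlap. Which gene was most abundant in knockout depended on the length used: scaled by the longest annotated transcript, a choice made after seeing the data, Vdac2 had 73.6 ± 0.606% in wild type and 53.9 ± 2.57% in knockout, above the 34.7 ± 1.28% of Vdac3, with all shares moving in the same direction. The summed VDAC level was 261 ± 1.44 CPM in wild type and 173 ± 15.3 CPM in knockout. That sum and the shares are descriptions with no test, since the fall of Vdac2 enters both.

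**Figure D3:**
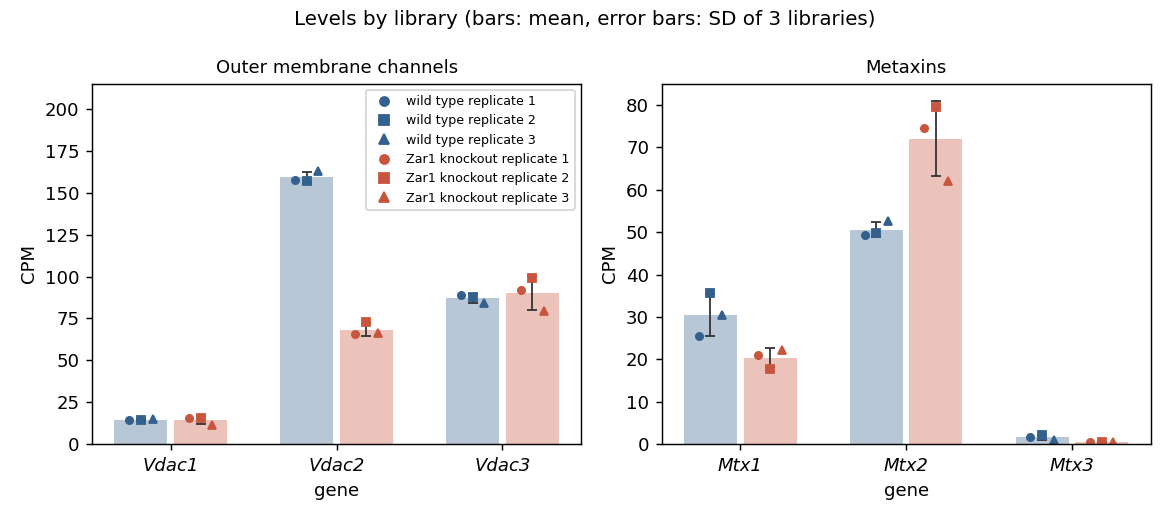
CPM of the VDAC genes (left) and metaxin genes (right); bars are means, error bars SD of 3 libraries, and points single libraries. Vdac2 drops from 159 to 68.2 CPM while Vdac1 and Vdac3 overlap between genotypes, and Mtx2 is higher where Mtx1 and Mtx3 are lower.

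The proteins listed as VDAC partners, chosen as a list of 9 genes outside the rule, changed in both directions: 3 of 8 tested rose, 2 fell and 3 did not pass, beside the 14.9% higher and 18.5% lower over all tested genes. Ppif, cyclophilin D of the matrix and a regulator of the permeability transition, went from 10.6 ± 0.774 to 4.21 ± 0.284 CPM (log2 fold change -1.34 ± 0.16, edgeR adjusted p = 0.000404). Itpr1, known as the main calcium release channel of the egg endoplasmic reticulum, went from 129 ± 3.78 to 93.7 ± 4.11 CPM (-0.46 ± 0.07, edgeR adjusted p = 0.00175). Its paralog Itpr2 had a higher wild-type level and did not pass, at 183 ± 3.81 against 172 ± 16.7 CPM (-0.09 ± 0.08, edgeR adjusted p = 0.460). Itpr3, a paralog of both, rose from 2.11, 3.40 and 2.87 CPM in wild type to 19.6, 14.9 and 7.61 CPM (2.33 ± 0.34, edgeR adjusted p = 0.00114). The ADP/ATP carriers of the inner membrane rose too, Slc25a4 from 18.4 ± 1.84 to 30.6 ± 1.28 CPM (0.73 ± 0.12, edgeR adjusted p = 0.00174) and Slc25a5 from 226 ± 10.4 to 279 ± 7.93 CPM (0.30 ± 0.07, edgeR adjusted p = 0.00978). The call of Slc25a5 was lost without wild-type replicate 1 (adjusted p = 0.0512). The list was drawn up with earlier results of these data known.

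In the TOM complex 1 of 5 tested genes rose and none fell by the edgeR test, where Tomm34, a cytosolic co-chaperone, was counted apart. Over all tested genes 14.9% were higher and 18.5% lower. Tomm40 (ENSMUSG00000002984.18), the channel itself, had 6.04, 6.07 and 7.43 CPM in wild type against 10.1, 13.8 and 13.8 in knockout. Its groups did not overlap, and the rise was 1.93-fold (log2 fold change 0.95 ± 0.18, edgeR adjusted p = 0.00436). An antisense RNA, Gm20512, lies opposite 5.72% of the Tomm40 exon bases. The strand setting of the counting is not given, and unstranded counting could tally reads in both genes apart from either. Tomm22, the central receptor and organiser of the complex, had 413, 503 and 473 CPM in wild type against 474, 443 and 605 in knockout (0.13 ± 0.12, edgeR adjusted p = 0.451). The highest library was knockout replicate 3, and without it the log2 fold change was -0.02. Tomm22 was thus present at a far higher level per kb than Tomm40 (1.44 CPM per kb) in wild type.

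The other receptors and small subunits of TOM did not pass. Tomm7, a small subunit that acts on complex assembly, had 14.2, 13.3 and 14.4 CPM in wild type against 16.5, 20.1 and 17.3 in knockout, every knockout library being higher (log2 fold change 0.36 ± 0.13, edgeR adjusted p = 0.0619). It passed with DESeq2 (adjusted p = 0.0247), with upper-quartile scaling (0.0382) and with offsets for GC content and length (0.0248). Tomm70a, the receptor for carrier proteins, had 11.6, 5.96 and 6.87 CPM in wild type, where replicate 1 was far above the others, and 10.6, 9.87 and 11.4 in knockout (0.38 ± 0.24, edgeR adjusted p = 0.27). Without wild-type replicate 1 its log2 fold change was 0.72 (edgeR adjusted p = 0.0284), and with the offsets and the replicate block it was 0.73 (0.0456). Tomm20, the presequence receptor, was low, with 3.80, 2.64 and 3.54 CPM in wild type and 4.38, 2.66 and 3.53 in knockout (0.08 ± 0.26, edgeR adjusted p = 0.846).

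The TOM members below the filter were Tomm5, Tomm6, Tomm20l and Tomm40l. Tomm5, a small subunit, was at 44, 19 and 4 counts in wild type against 1, 9 and 9 in knockout, a spread too wide to compare. The germline paralog Tomm20l had 12 counts over the wild-type and 13 over the knockout libraries. Tomm40l, a paralog of the channel, had a total of 1 count over the 6 libraries. Nr1i3 lies opposite 64.3% of the Tomm40l exon bases, where unstranded counting could tally reads apart from either gene. The level of Tomm40l is therefore uncertain. Tomm6 was listed at 0 in every library, which allows up to 3 assigned counts, or 0.0934 CPM at the lowest depth. A total of 76.0% of its exon bases lie also in Gm21981, a gene on the same strand that was at 0 as well, and a read in both genes is tallied apart from either, so its level was not measurable here. Tomm34 had 81.8, 80.5 and 77.4 CPM in wild type against 95, 84.1 and 103 in knockout, without overlap (log2 fold change 0.24 ± 0.09, edgeR adjusted p = 0.0808). It passed without knockout replicate 2 (edgeR adjusted p = 0.0282) and with upper-quartile scaling (0.0447).

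The metaxins, partners of SAMM50 in the SAM complex, moved apart. Mtx2 (ENSMUSG00000027099.10) had 49.4, 49.8 and 52.6 CPM in wild type against 74.5, 79.5 and 62.2 in knockout, where every knockout library was higher (log2 fold change 0.51 ± 0.10, edgeR adjusted p = 0.00603). Mtx1 (ENSMUSG00000064068.16), which pairs with MTX2 in the complex, had 25.6, 35.6 and 30.4 CPM in wild type against 21.1, 17.8 and 22.3 in knockout, and here every knockout library was lower (log2 fold change -0.58 ± 0.15, edgeR adjusted p = 0.0164). The fall of Mtx1 just missed the threshold without wild-type replicate 2 (adjusted p = 0.0678), wild-type replicate 3 (0.0519) or knockout replicate 2 (0.0508), and reached -0.99 with offsets for GC content and length, its transcript having 61.7% GC. Of the Mtx1 exon bases, 21.2% and 8.87% overlap Gm43737 and Thbs3 on the opposite strand.

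Mtx3, the least abundant metaxin, fell by the largest fold of the 30 genes, from 1.74, 2.16 and 0.924 CPM to 0.515, 0.456 and 0.520 CPM (log2 fold change -1.69 ± 0.40, edgeR adjusted p = 0.0116). It rests on few reads, and the call was lost without wild-type replicate 2 (adjusted p = 0.0537) and with the offsets and the replicate block (0.0526). Samm50, the barrel that forms the core of SAM, had 14.5, 13.0 and 12.8 CPM in wild type against 13.9, 13.7 and 15.3 in knockout (log2 fold change 0.09 ± 0.13, edgeR adjusted p = 0.635, 95% interval -0.17 to 0.35). As a share of metaxin counts per exon length, Mtx2 went from 61.3 ± 3.90% to 77.1 ± 4.12%, Mtx1 went from 37.7 ± 3.78% to 22.7 ± 4.09% and Mtx3 from 0.947 ± 0.361% to 0.261 ± 0.0351% (mean ± SD, n = 3 each, no test). Scaled by the longest transcript, Mtx1 stood at 51.8 ± 3.997% and Mtx2 at 47.5 ± 4.06% in wild type, so their order there depended on the length used, and at 34.2 ± 5.25% and 65.6 ± 5.27% in knockout. The count of Mtx2 was 1.40 to 1.93 times that of Mtx1 in the wild-type libraries and 2.78 to 4.46 times in the knockout libraries.

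Promoter sequences were searched for letters known from promoters of mitochondrial genes, to see whether genes that rose and genes that fell differ in them. RefSeq windows of 250 bases before to 50 after each annotated start (GRCm38.p6, matched by symbol) were at hand for 26 of the 30 tested genes. The letters CCGGAAG, the core bound by ETS factors such as GABP, occurred on either strand in 15 of these 26 (57.7%), against 18.5% of 11033 tested genes with a window and 9.93% of all 27025 genes with one. They were present in 3 of 6 genes that rose (Mtx2, Timm10b and Pmpcb), in all 3 with a window that fell (Mtx1, Mtx3 and Timm10) and in 9 of 17 that did not pass. The NRF1 motif occurred in Tomm20 and Timm8b, 7.69% of the 26, against 10.7% of tested genes. A match is only a description of the letters and not of binding, and the genes were chosen by function. Stretches of 30 bases are shown for a metaxin that rose, a metaxin that fell, the most abundant TOM receptor and a channel that did not pass, with the ETS letters (CCGGAAG, or CTTCCGG where it reads on the opposite strand) in capitals:
Mtx2, chr2:74825775-74825804, plus strand: ggggcggagcagCCGGAAGtgccggcgcgc
Mtx3, chr13:92844592-92844621, plus strand: aggtctgtttccCTTCCGGcacagctccta
Tomm22, chr15:79670812-79670841, plus strand: cccggctcgcttCCGGAAGacgctctgtcc
Vdac1, chr11:52360734-52360763, plus strand: ccgctctgtgtgCCGGAAGctcccctcccc
The same letters stood near the starts of genes of each outcome, and in Tomm22 they overlapped a copy on the opposite strand.

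Of the small TIM chaperones of the intermembrane space 1 of 6 fell and none rose by the edgeR test. Among all tested genes 18.5% were lower and 14.9% higher. TIM9 and TIM10 form a hexamer that carries inner membrane proteins, yet their mRNAs stood far apart in level and in change. Timm10 (ENSMUSG00000027076.11) had 3.38, 4.71 and 4.38 CPM in wild type against 1.60, 2.04 and 2.00 in knockout, a fall of 2.21-fold with no overlap (log2 fold change -1.14 ± 0.24, edgeR adjusted p = 0.00724). Timm9 had 390.0, 377 and 419 CPM in wild type against 391, 452 and 304 in knockout, with replicate 3 of the knockout lowest and replicate 2 highest (log2 fold change -0.05 ± 0.13, edgeR adjusted p = 0.807, 95% interval -0.30 to 0.20). Per kb of exon, wild-type Timm9 stood at 92.3 CPM and Timm10 at 5.10 CPM.

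The TIM8 and TIM13 subunits form another hexamer with fewer known substrates. Timm8b, the most abundant member per kb, had 184, 183 and 196 CPM in wild type against 188, 187 and 159 in knockout (log2 fold change -0.08 ± 0.09, edgeR adjusted p = 0.526, 95% interval -0.24 to 0.09). Timm13 had 25.9, 36.8 and 33.2 CPM in wild type against 27.4, 28.9 and 31.0 in knockout (-0.13 ± 0.14, edgeR adjusted p = 0.498). Both genes overlapped between the genotypes. Timm8a1, the mouse counterpart of the human deafness dystonia gene, was low, at 1.47, 1.79 and 1.69 CPM in wild type and 0.830, 1.58 and 0.684 in knockout (-0.67 ± 0.38, edgeR adjusted p = 0.206). Without knockout replicate 2 it passed, at -1.11 (edgeR adjusted p = 0.0474). Its paralog Timm8a2 had the largest wild-type coefficient of variation of the 30 tested members, at 54.2%. The levels of Timm8a2 were 15.2, 10.2 and 29.2 CPM in wild type and 13.9, 19.6 and 12.9 in knockout (-0.24 ± 0.34, edgeR adjusted p = 0.638).

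In the TIM22 complex, which inserts metabolite carriers into the inner membrane, 1 of 3 genes rose, beside 14.9% of all tested genes. Timm10b (ENSMUSG00000089847.9), the small TIM that docks the chaperones on this complex, had 48.7, 52.9 and 51.0 CPM in wild type against 74.1, 76.0 and 77.9 in knockout. The libraries of each genotype lay close together and the groups did not overlap (log2 fold change 0.58 ± 0.08, edgeR adjusted p = 0.000787). Timm10b and Timm10 thus changed in opposite directions, and the count of Timm10b was 11.2 to 14.4 times that of Timm10 in wild type and 37.3 to 46.2 times in knockout. Timm10b shares 10.5% of its exon bases with Gm45799 on the same strand and 7.73% with Arfip2 on the other. Timm22, the channel of the complex, had 2.29, 3.66 and 2.16 CPM in wild type against 1.83, 2.39 and 1.67 in knockout (-0.46 ± 0.30, edgeR adjusted p = 0.278).

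Timm29, a metazoan subunit that links TIM22 to the TOM complex, depended on 1 library. It had 17.6, 15.2 and 15.7 CPM in wild type against 8.99, 6.04 and 30.6 in knockout, so knockout replicates 1 and 2 lay below all wild-type libraries and knockout replicate 3 above all of them. The log2 fold change was -0.09 ± 0.50 over all libraries (edgeR adjusted p = 0.911) and -1.11 without knockout replicate 3 (edgeR adjusted p = 0.00441). Yipf2, which overlaps Timm29 on the opposite strand by 3.38% of the Timm29 exon bases, had 5.50, 2.25 and 4.596 CPM in the knockout libraries. Whether this overlap bears on the Timm29 values was not tested.

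The TIM23 presequence translocase had 2 of 6 genes higher and 1 lower, beside 14.9% and 18.5% of all tested genes. Timm44 (ENSMUSG00000002949.16), which tethers the import motor to the channel, had 118, 134 and 122 CPM in wild type against 148, 160.4 and 172 in knockout (log2 fold change 0.36 ± 0.09, edgeR adjusted p = 0.0114). All knockout libraries were above all wild-type libraries, and the call narrowly missed the threshold when wild-type replicate 1 (adjusted p = 0.0564) or 3 (0.0563) was left out. Timm50, the receptor that takes presequences from TOM, had 29.9, 28.1 and 34.5 CPM in wild type against 45.4, 37.2 and 40.1 in knockout (0.41 ± 0.12, edgeR adjusted p = 0.0281). Its log2 fold change shrank to 0.13 with offsets for GC content and length (edgeR adjusted p = 0.431), at a transcript GC content of 58.3%, and the call was also lost without wild-type replicate 1 (0.0958), wild-type replicate 2 (0.108) or knockout replicate 1 (0.0891).

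Timm21, which links TIM23 to TOM and to respiratory chain assembly, went the other way, from 34.5, 41.9 and 37.5 CPM to 28.6, 27.4 and 29.2 CPM (log2 fold change -0.42 ± 0.11, edgeR adjusted p = 0.0156). With GC content and length offsets it was -0.23 (edgeR adjusted p = 0.1398), at a transcript GC content of 40.9%, and the call went when wild-type replicate 2 (0.0668) or 3 (0.0514) was left out. The channel gene Timm23 had 18.1, 18.4 and 17.96 CPM in wild type against 18.9, 20.1 and 17.98 in knockout (0.07 ± 0.11, edgeR adjusted p = 0.696, 95% interval -0.16 to 0.29). Its level is uncertain, since 5 predicted genes hold copies of at least 95% identity with 214 counts beside its own 4028 over the 6 libraries, and reads that fit several places were tallied apart. Of the paralogous partners of TIM23, Timm17a had 217, 219 and 229 CPM in wild type against 234, 231 and 181 in knockout (-0.04 ± 0.10, edgeR adjusted p = 0.791), and Timm17b had 9.27, 8.96 and 9.64 CPM against 11.4, 9.47 and 11 CPM (0.19 ± 0.15, edgeR adjusted p = 0.348). Timm17a made up 88.5 ± 0.216% of the pair per exon length in wild type and 86.6 ± 2.27% in knockout, and knockout replicate 3 was lowest at 84.2%.

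The motor that works with this translocase was measured in genes outside the rule. Hspa9, the mitochondrial HSP70 that pulls proteins into the matrix, had 277, 255 and 260.1 CPM in wild type against 139, 148 and 131 in knockout, a fall of 1.89-fold (log2 fold change -0.92 ± 0.08, edgeR adjusted p = 5.81e-05). Its tether Timm44 rose, and the count of Timm44 went from 0.426 to 0.526 of that of Hspa9 in the wild-type libraries to 1.07 to 1.31 times in the knockout libraries. Dnajc19, a J protein of the motor, went from 8.89 ± 0.382 to 5.46 ± 0.986 CPM (-0.70 ± 0.18, edgeR adjusted p = 0.0173), a call lost with GC content and length offsets (adjusted p = 0.0552) and when wild-type replicate 1 (0.0572) or 3 (0.0556) was left out. Romo1, a small subunit of the translocase, rose from 14.7 ± 2.03 to 24.3 ± 4.46 CPM (0.73 ± 0.17, edgeR adjusted p = 0.0102), and its log2 fold change was 0.28 with the offsets (edgeR adjusted p = 0.283). Pam16, a further motor subunit, was at 131 ± 5.53 CPM against 158 ± 35.2 (edgeR adjusted p = 0.166), and the nucleotide exchange factor Grpel1 36.1 ± 4.05 and 31.9 ± 9.16 CPM (edgeR adjusted p = 0.511).

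**Figure D4:**
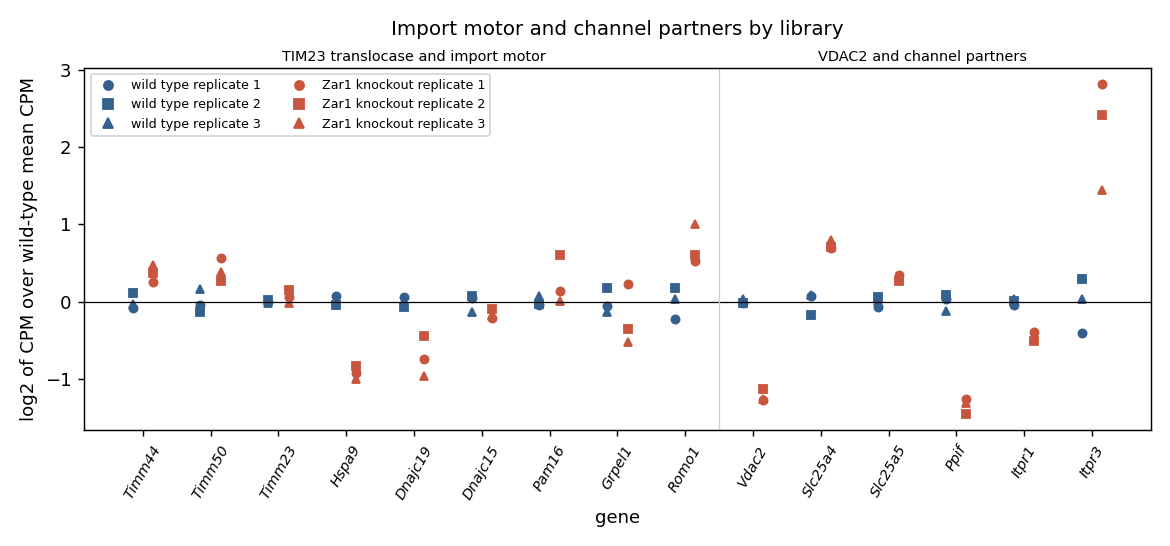
Log2 of CPM over the wild-type mean, 1 point per library, for translocase and motor genes (left) and for Vdac2 with some partners (right). The partners shown are those past the edgeR threshold, without Itpr2, Hk2 and Tspo, which did not pass, and Hk1, which was not tested. Hspa9, Dnajc19, Vdac2, Ppif and Itpr1 lie below all wild-type libraries in every knockout library. Timm44, Timm50, Romo1, Slc25a4, Slc25a5 and Itpr3 lie above all wild-type libraries in every knockout library.

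Among all 34 import partners listed outside the rule, 9 rose, 4 fell and 21 did not pass, against 14.9% and 18.5% of all tested genes. With any 1 wild-type library left out, 3 rose and 1 or 2 fell, and without knockout replicate 1, 5 rose. The list was also drawn up with earlier results of these data known. Chchd3, a subunit of the MICOS complex that shapes cristae and contacts SAM, rose from 103 ± 7.50 to 145 ± 16.99 CPM (0.49 ± 0.10, edgeR adjusted p = 0.006). Apool, another MICOS gene, fell from 16.1 ± 2.66 to 10.5 ± 1.34 CPM (-0.61 ± 0.17, edgeR adjusted p = 0.0219). Chchd4, the oxidoreductase that folds small TIM proteins in the intermembrane space, rose from 0.775 ± 0.313 to 2.01 ± 0.320 CPM (1.36 ± 0.38, edgeR adjusted p = 0.0225), and Mtch1, an outer membrane insertase, from 8.93 ± 1.57 to 13.2 ± 0.202 CPM (0.57 ± 0.16, edgeR adjusted p = 0.0258). Immp2l, an inner membrane peptidase subunit, fell from 2.48 ± 0.517 to 1.13 ± 0.476 CPM (-1.13 ± 0.36, edgeR adjusted p = 0.0392). Except for Chchd3, these calls were lost without single libraries: Chchd4 with any of 3 libraries left out (adjusted p 0.0577 to 0.0671), Mtch1 with any of 3 (0.0529 to 0.0995), Apool with any of 3 (0.0593 to 0.0931) and Immp2l with any of 5, all but knockout replicate 1 (0.0703 to 0.1395). Those of Chchd4 were wild-type replicates 2 and 3 and knockout replicate 3, those of Mtch1 wild-type replicates 1 and 2 and knockout replicate 1, and those of Apool wild-type replicates 2 and 3 and knockout replicate 1. The calls of Apool and Mtch1 were also lost with GC content and length offsets (adjusted p = 0.0809 and 0.108).

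The subunits of the processing peptidase MPP, which cuts presequences from imported proteins, differed. Pmpcb (ENSMUSG00000029017.14), the catalytic subunit, had 45.2, 40.5 and 44.7 CPM in wild type against 69.4, 59.0 and 58.2 in knockout, with no overlap (log2 fold change 0.52 ± 0.10, edgeR adjusted p = 0.00465). Pmpca, the substrate-binding subunit, was lower in level, at 3.50, 3.06 and 4.41 CPM in wild type and 2.46, 2.23 and 3.26 in knockout (-0.46 ± 0.26, edgeR adjusted p = 0.197, 95% interval -0.96 to 0.04). The count of Pmpcb was 10.1 to 13.2 times that of Pmpca in wild type and 17.9 to 28.2 times in knockout. A total of 20.4% of the Pmpca exon bases lie opposite Inpp5e. Reads in both genes could be tallied apart from either, so the Pmpca count may miss some.

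The calls of 6 genes, Tomm40, Mtx2, Vdac2, Timm10, Timm10b and Pmpcb, held their direction and side of the threshold under all 17 alternative settings. Those of the other 5 genes, Mtx1, Mtx3, Timm21, Timm44 and Timm50, were lost in 2 to 5 of the settings, with no change of direction. Transcripts of the genes that rose had a median GC content of 51.1% and of those that fell 47.2%, and the corresponding medians over all tested genes were 51.0% and 46.4%, whose part in the calls was not tested further than by the offsets.

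**Figure D5:**
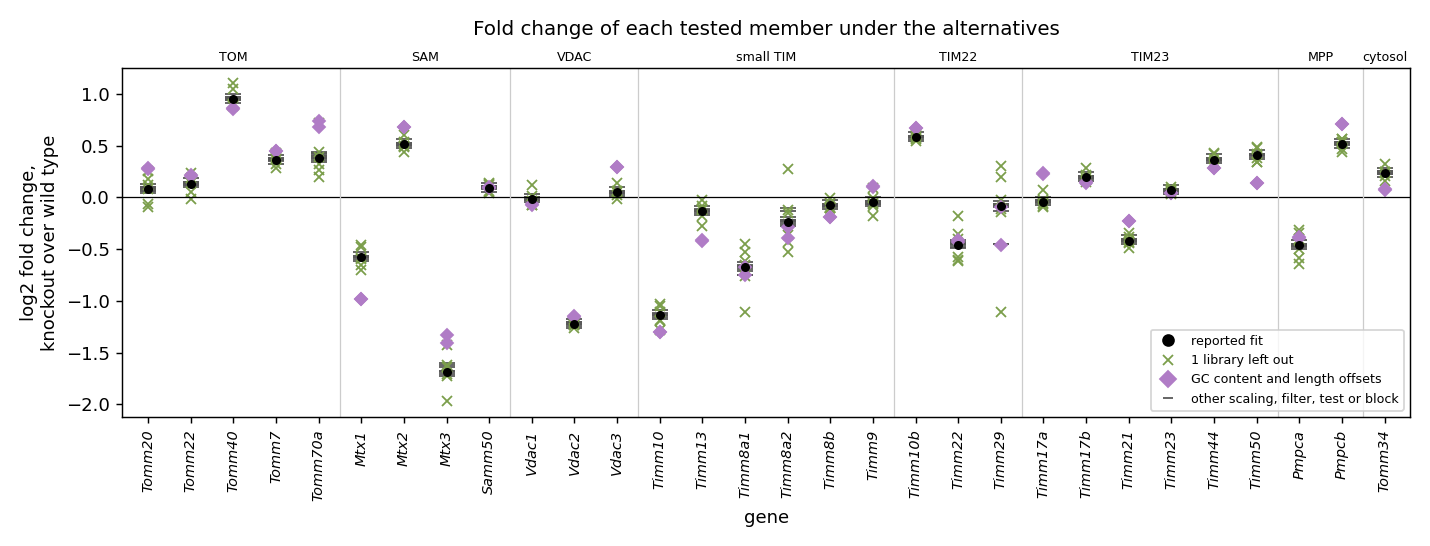
Log2 fold change of the 30 tested genes in the reported fit (black circles), with 1 library left out (crosses), with GC content and length offsets (diamonds) and with other scaling, filters, tests or the replicate block (dashes). Vdac2 stays between -1.26 and -1.15, while Timm29 ranges from -1.11 to 0.31 and Timm50 from 0.13 to 0.49.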

How the data were processed

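PolyA RNA-seq libraries of 10 GV oocytes each, 3 wild type and 3 Zar1 knockout by the labels' titles, were made with the QIAseq FX single-cell kit, per the labels' protocols. For each library the authors deposited a table of unnormalized gene counts. The submitters' processing notes list HTSeq 0.13.5, STAR 2.7.8a, cutadapt 2.8 and bcl2fastq 2.20.0.422, with mm39 as the build. No annotation release, strand setting or read filter is given in the sources used here. The tallies of unassigned reads were dropped. Of the reads, 4.84% to 5.70% lay outside genes, 4.21% to 4.42% in more than 1 gene and 13.9% to 15.0% had more than 1 alignment. Symbols, biotypes, exon lengths and overlaps came from GENCODE M21 (GRCm38), matched by gene ID.

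Genes were tested with edgeR 4.0.16 in R 4.3.3 (filterByExpr, TMM, glmQLFit, glmQLFTest). The model held genotype alone, and two-sided p-values were adjusted by Benjamini-Hochberg over 16473 genes. Standard errors are the absolute log2 fold change over the square root of F. Fold changes are relative, since TMM centres each library on most genes. The labels number biological replicates but name no animals, so the p-values reflect only how these pools vary, which may be technical. No 2 libraries of a genotype agreed within sampling noise (chi-square over degrees of freedom 14.3 to 46.8). On simulated counts the steps recovered 9.88% of 1.5-fold, 66.7% of 2-fold and 100% of 4-fold changes, with 2.83% of calls false. The simulation used the same dispersion for every gene and changed 200 genes, with 106 calls. The data had 2448 calls higher and 3051 lower, so the adjusted p threshold fell at a smaller p in the simulation. The recovery rates therefore do not give the sensitivity in the data. Genes that did not pass may still differ.

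Members and lists were chosen with earlier results of these data known. The rule for named genes takes Zar1, every member, and the 4 called partners with the smallest adjusted p per direction and list. Grpel1, Pam16, Itpr2, Yipf2 and the marker genes were named after their values were seen. The alternatives tried were upper-quartile, RLE or no scaling, 2 other filters, DESeq2 1.42.0, limma-voom (limma 3.58.1), the replicate number as a block, GC content and length offsets (99.7% of genes) with and without that block, leaving out the mitochondrial genome, leaving out each library and, added after seeing the data, scaling paralog shares by the longest transcript.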

Additional observations from a re-analysis of the deposited data

How the results depend on the processing

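Counts of genes past the threshold moved by over 1.5 times under several settings, most often for the import partners. With GC content and length offsets plus the replicate block, 3 members were lower, and 4 import partners were higher and 1 lower; with the offsets alone 2 import partners were lower. Leaving out 1 library gave 5 to 7 members higher and 2 to 6 lower, 3 to 11 import partners higher and 1 to 3 lower, and 1541 (without wild-type replicate 3) to 2509 of all tested genes higher and 2285 to 3125 lower. The median log2 fold change of the members was 0.067 with upper-quartile scaling, 0.086 with the offsets and 0.085 with the offsets and the block, and ran from -0.030 without wild-type replicate 2 to 0.072 without knockout replicate 3. Signs of genes that did not pass turned: Vdac1 to 0.0017 (RLE), 0.036 (upper-quartile) and 0.0018 (DESeq2), Timm9 to 0.11 (offsets) and 0.10 (offsets and block), and Timm17a to 0.0069 (upper-quartile), 0.24 (offsets) and 0.23 (offsets and block). With 1 library left out, Tomm20 ranged from -0.094 to 0.26, Tomm22 from -0.016 to 0.23, Vdac1 from -0.077 to 0.12, Vdac3 from -0.016 to 0.13, Timm8a2 from -0.53 to 0.27, Timm9 from -0.18 to 0.091, Timm29 from -1.11 to 0.31 and Timm17a from -0.094 to 0.067. Counts not scaled by length gave shares in wild type and knockout of 5.56% and 8.29% for Vdac1, 33.4% and 52.1% for Vdac3, 1.94% and 0.538% for Mtx3, and 96.0% and 95.2% for Timm17a in its pair, in the same directions. Scaling by the longest transcript, chosen after seeing the data, gave 6.76% and 11.4% for Vdac1, 73.6% and 53.9% for Vdac2, 19.7% and 34.7% for Vdac3, 51.8% and 34.2% for Mtx1, 47.5% and 65.6% for Mtx2, and 0.706% and 0.214% for Mtx3. Same-numbered libraries did not deviate together (correlations of -0.0090, -0.042 and -0.025). The labels do not say whether these libraries were collected or prepared together, and the correlations cannot decide it. The replicate block alone left 6 members higher and 5 lower, and 6 import partners higher and 3 lower, where Immp2l lost its call (adjusted p = 0.0635). The cause of these shifts was not tested. Depth limits Tomm5, Tomm20l, Tomm40l and Mtx3, whose values rest on few reads, and Tomm40l may also miss reads that overlap Nr1i3.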
